A study of Homo sapiens with 2 samples.

Results

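The 5' domain of the small subunit's 18S rRNA was examined in 2 pull-down libraries from U2OS cells, a human osteosarcoma line. Its members are all positions from 1 to 668 of 18S in the deposited numbering, chosen by position alone: 668 of the 1870 positions of 18S and of the 6940 positions of 18S and 28S together. One library is labelled ZAK-alpha-RBR, a pull-down with a construct of ZAKα, a kinase that senses stalled ribosomes, and the other is labelled mock. The labels do not spell out RBR or what the mock pull-down contained, and they give no drug or stress treatment for either. The assay was CLIP-seq, in which RNA pieces that come down with a protein are sequenced. There was 1 library per group, so no spread between replicates exists and no test between the libraries was possible.

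The 5' domain folds into the body of the small subunit. Its first strand helps to form the central pseudoknot that joins the domains, and helix 18, near its 3' boundary, carries the 530 loop, which lines the decoding site and the path by which mRNA enters. Helices 14 and 15 are hairpins of the body on the side that faces the large subunit; in bacteria this surface is touched by the GTPases that drive translation, and helix 14 takes part in a bridge between the subunits. Helix names are approximate here, since the table gives positions and bases only.

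The segments on which the results turn are shown 5' to 3' from the deposited table, so that the bases at their edges can be read. In all but the 530 loop, capitals mark each C-A step, a C with an A after it, because many changes of coverage lay there. In the 530 loop, capitals mark the match to GCCGCGG, the letters by which it was found, which occur 1 time in 18S and 5 times in 28S on the strand listed.
Higher region, 419 to 479, with the helix 14 hairpin: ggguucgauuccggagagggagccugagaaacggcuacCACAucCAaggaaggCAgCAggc
Block over the helix 15 hairpin, 493 to 527, with 1 base on each side: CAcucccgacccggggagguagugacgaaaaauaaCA
Block near the 5' end, 79 to 98, with 1 base on each side: CAgugaaacugcgaauggcuCA
Lower region, 48 to 74: cCAugCAugucuaaguacgCAcggccg
Lower region, 224 to 239: agauCAaaacCAaccc
Lower region, 638 to 662: cCAauagcguauauuaaaguugcug
530 loop, 612 to 634: ugccagcaGCCGCGGuaauucca

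The 5' domain took more of the ZAK-alpha-RBR library than of the mock. It held 14.4% of the ZAK-alpha-RBR coverage (95% exact binomial interval 13.9 to 14.9) and 11.1% of the mock coverage (10.9 to 11.3), 1.30-fold apart (1.25 to 1.36). As the number of reads the intervals take the highest depth of 18S plus that of 28S, 17111 for ZAK-alpha-RBR and 98906 for the mock. Each library holds at least that many reads, and the intervals cover counting error only. The rest of 18S held 21.4% and 21.8%, and 28S held 64.2% and 67.1%. The region of the domain with the highest ratio, 419 to 479, was picked from these same data, so leaving it out had to narrow the difference in share. It held 32.7% of the domain's ZAK-alpha-RBR coverage and 10.3% of its mock coverage, and with that region left out of the domain and of the totals the shares were 10.17% and 10.03%.

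Read depth is the number of reads over a position, and levels are given as parts per 1000000 of a library's summed coverage (ppm). The median depth in the domain was 970.5 reads in the ZAK-alpha-RBR library, with a range of 4 to 12973, and 10584 in the mock, with a range of 209 to 45513. In the ZAK-alpha-RBR library 5 positions had under 100 reads, and in the mock none had. Between the log2 levels of the libraries Pearson's r was 0.55 over the 668 positions of the domain, 0.77 over the 1202 of the rest of 18S and 0.81 over the 5070 of 28S. Neighbouring positions share reads, so these values only describe the profiles.

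**Figure D1:**
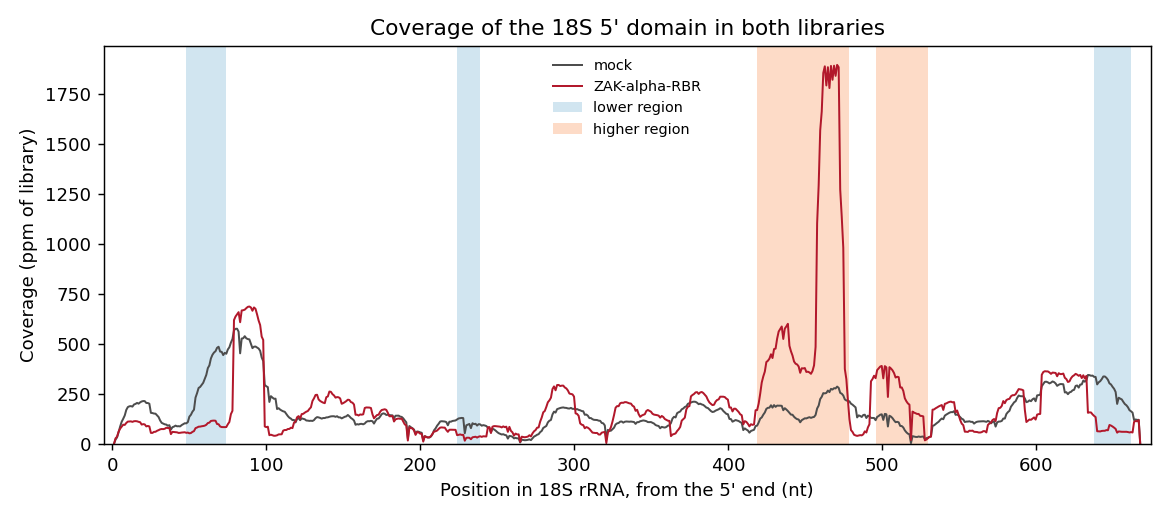
Coverage in ppm of each library (y) at each position of the 5' domain (x); the red line is the ZAK-alpha-RBR library, the grey line the mock, and the shading marks the called regions. The red line reaches 1898 ppm at position 471, where the grey line is at 288 ppm, and it lies far below the grey line at 48 to 74 and 638 to 662.

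Both excess and deficit were frequent in the domain. With a pseudocount of 1 ppm, 92 of the 668 positions (13.8%) were at least 2-fold higher in the ZAK-alpha-RBR library, against 9.31% of all 6940 positions, and 130 (19.5%) were at least 2-fold lower, against 11.9%. The rest of 18S had 6.07% higher and 12.8% lower, and 28S had 9.49% and 10.7%. Most positions of the domain, 446, lay within 2-fold. The median log2 ratio was 0.24 in the domain, -0.11 in the rest of 18S and 0.15 in 28S. At a limit of 4-fold, 21 positions of the domain were higher, at 458 to 475 and 521 to 523, and 23 were lower; 0.749% and 2.55% of all positions passed that limit.

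The higher positions were concentrated and the lower ones dispersed. All but 3 of the 92 higher positions formed 2 unbroken runs, 422 to 475 and 493 to 527; the other 3 were positions 257, 258 and 282. The lower positions formed runs at 19 to 29, 50 to 78, 99 to 113, 224 to 243, 312 to 317, 363 to 368, 480 to 490 and 634 to 663, besides the single positions 321 and 668. A region was called where the ratio, with both profiles averaged over 15 positions, stayed at least 2-fold from the median of 18S for 10 or more positions. Higher regions were called at 419 to 479 and 496 to 530, and lower regions at 48 to 74, 224 to 239 and 638 to 662. The higher regions covered 96 positions, or 14.4% of the domain, and the lower ones 68, or 10.2%; the same rule covered 4.73% and 9.73% of all positions. The run nearest to the rule without meeting it was 104 to 112, with 9 positions in a row past the limit and a mean of 51.4 ppm against 190 ppm in the mock.

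**Figure D2:**
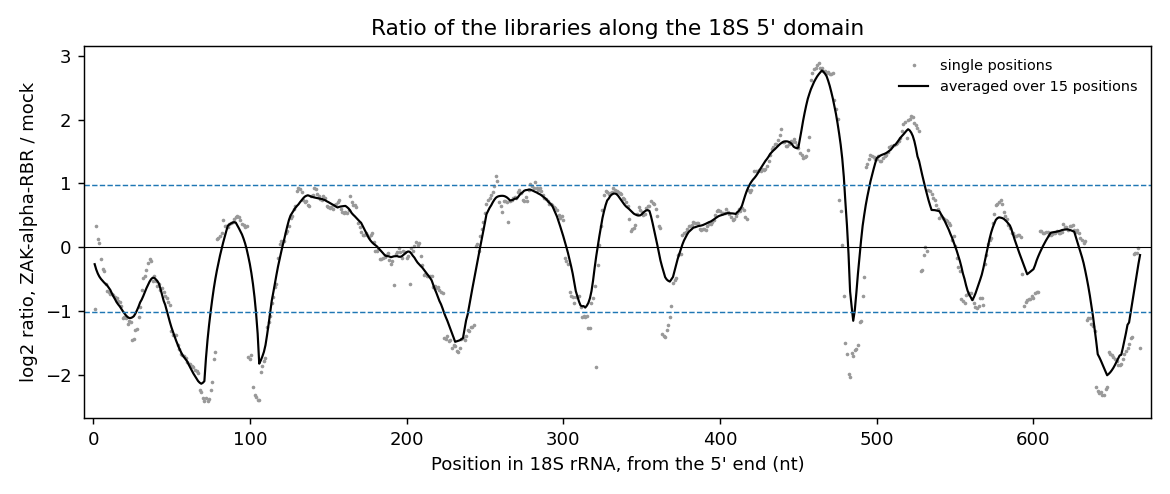
Log2 ratio of ZAK-alpha-RBR over mock (y) along the 5' domain (x), as dots for single positions and as a line for both profiles averaged over 15 positions; dashed lines mark 2-fold above and below the median of 18S. The line passes the upper limit only around 419 to 479 and 496 to 530, where it peaks at 2.77 and 1.85.

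Near the 5' end of the molecule mean coverage was lower with ZAK-alpha-RBR. Over the first 25 positions, the strand that enters helices 1 and 2, it averaged 89.8 ppm where the mock averaged 158 ppm, for a log2 ratio of -0.81. At position 16 there were 785 ZAK-alpha-RBR reads and 16274 mock reads, which after scaling is 1.80-fold lower (1.68 to 1.94). Position 1 was covered by 6 and 209 reads, so little can be read from the terminal base.

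The mock profile then rose into its highest peak of the domain, and the ZAK-alpha-RBR profile followed only over its 3' part, from 79 to 98. In the lower region 48 to 74 the means were 88.2 ppm with ZAK-alpha-RBR and 333 ppm in the mock, 3.78-fold apart. At position 69, where the averaged ratio was lowest, 684 reads stood against 38416, 4.88-fold lower (4.52 to 5.27) after scaling. Between positions 78 and 79 the ZAK-alpha-RBR depth went from 1143 to 4246 reads, while the mock depth went from 41419 to 44925.

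From 79 to 98 the libraries were close in level. The means were 644 ppm with ZAK-alpha-RBR and 508 ppm in the mock, and at position 89 the ZAK-alpha-RBR library was 1.31-fold higher (1.27 to 1.35). The 5 highest mock positions of the domain were 79, 80, 81, 82 and 86, with 570, 577, 578, 563 and 541 ppm, and there the ZAK-alpha-RBR library had 621, 639, 650, 661 and 673 ppm. The block ended more sharply in the ZAK-alpha-RBR library than in the mock: depth fell 5.87-fold from 3567 to 608 reads between positions 98 and 99, and 1.40-fold from 32778 to 23388 in the mock. Beyond it, at position 106, 292 reads stood against 17956, 5.34-fold lower (4.75 to 6.01). This stretch of 20 positions was thus modestly above the mock, 1.27-fold in mean level, while both of its flanks were several-fold below the mock.

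**Figure D3:**
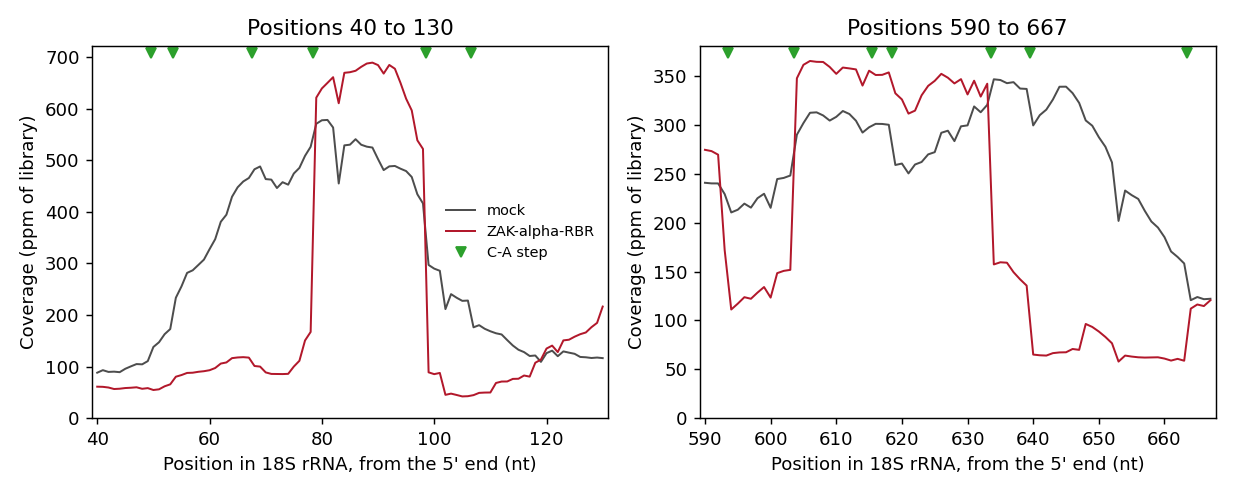
Coverage in ppm (y) at positions 40 to 130 (left) and 590 to 667 (right), red for ZAK-alpha-RBR and grey for the mock; green triangles mark the C-A steps. The red line turns at the triangles into 79 and 99 on the left and into 604, 634 and 640 on the right, where the grey line changes by at most 1.40-fold.

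The middle of the domain, up to position 418, held moderate departures in both directions. Over 1 to 418 as a whole the means were 149 ppm with ZAK-alpha-RBR and 156 ppm in the mock. Tiles of 25 positions were higher by 1.69-fold at 126 to 150, 1.75-fold at 251 to 275, 1.65-fold at 276 to 300 and 1.63-fold at 326 to 350. None of these tiles reached 2-fold. The tile at 251 to 275, of which 96.0% was G or C, had the lowest mock mean of the domain, 33.4 ppm, against 58.5 ppm with ZAK-alpha-RBR.

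The lower region 224 to 239 lies in this stretch and is rich in A. Its means were 37.2 ppm with ZAK-alpha-RBR and 105 ppm in the mock, 2.82-fold apart, and at position 231 there were 224 and 7721 reads, 2.99-fold lower (2.62 to 3.43). A shorter deficit began at position 363, where 278 ZAK-alpha-RBR reads followed 798 at position 362 while mock depth went from 7452 to 8368. There the ZAK-alpha-RBR library was 2.61-fold lower (2.32 to 2.96), and the run past 2-fold ended at 368.

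**Figure D4:**
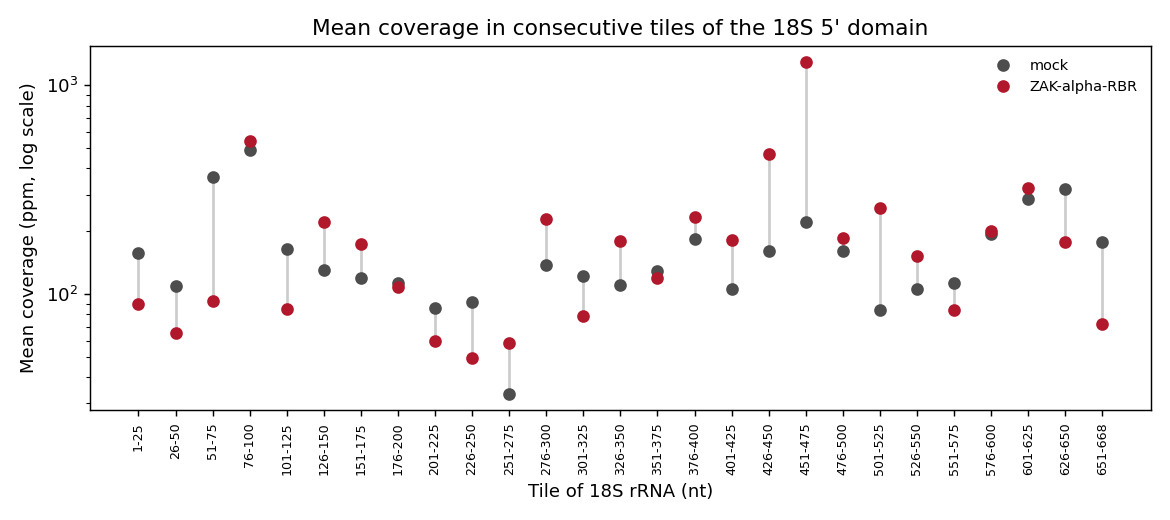
Mean coverage of each library (y, ppm on a log scale) in 27 consecutive tiles of the 5' domain (x; 25 positions each, the last with 18), with a grey line joining the libraries of a tile. The red points lie at least 2-fold above the grey ones in 3 tiles, 426 to 450, 451 to 475 and 501 to 525, and at least 2-fold below them in 51 to 75 and 651 to 668.

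Across all 27 tiles the log2 ratio ran from -1.97 at 51 to 75 to 2.54 at 451 to 475. The highest tiles were 451 to 475, 501 to 525 with 1.61 and 426 to 450 with 1.53, and the lowest were 51 to 75, 651 to 668 with -1.29 and 101 to 125 with -0.95. In all, 3 tiles were at least 2-fold higher and 2 at least 2-fold lower. Over the 279 tiles of both rRNAs 6.81% were higher and 5.38% lower by that limit.

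The largest excess lay in the segment that holds helix 14. In the region 419 to 479 the means were 770 ppm with ZAK-alpha-RBR and 187 ppm in the mock, 4.13-fold apart. The ZAK-alpha-RBR profile there had a low shoulder and a tall core. The shoulder climbed to 4118 reads at position 439 against 13073 in the mock, a 3.63-fold difference (3.50 to 3.76), and sank to 2408 reads at position 454. The core, 458 to 475, where ZAK-alpha-RBR depth was above 50% of its maximum, had 1638 ppm against 254 ppm in the mock. It made up 20.5% of the domain's ZAK-alpha-RBR coverage and 4.13% of its mock coverage. RNAfold, which predicts pairing from sequence, gave 0 base pairs for the core alone. Run on 419 to 479, it paired core bases 461 to 463, 466 to 469 and 473 to 475 with bases 421 to 423 and 427 to 433 in the shoulder.

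The core was built in steps. ZAK-alpha-RBR depth rose from 3328 to 7555 reads between positions 457 and 458 and from 8856 to 10734 between 459 and 460, and both steps run from C to A. It then stayed between 12181 and 12973 reads from 462 to 472, with small dips at the first of each pair of equal bases. It fell from 12893 to 8711 reads after position 472 and from 6716 to 2575 after position 475, again at steps from C to A. The mock had a broad hump over the same positions, from 14087 reads at 458 to 22715 at 471, and still 16904 at 479, so its edges were gradual where those of ZAK-alpha-RBR were abrupt.

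**Figure D5:**
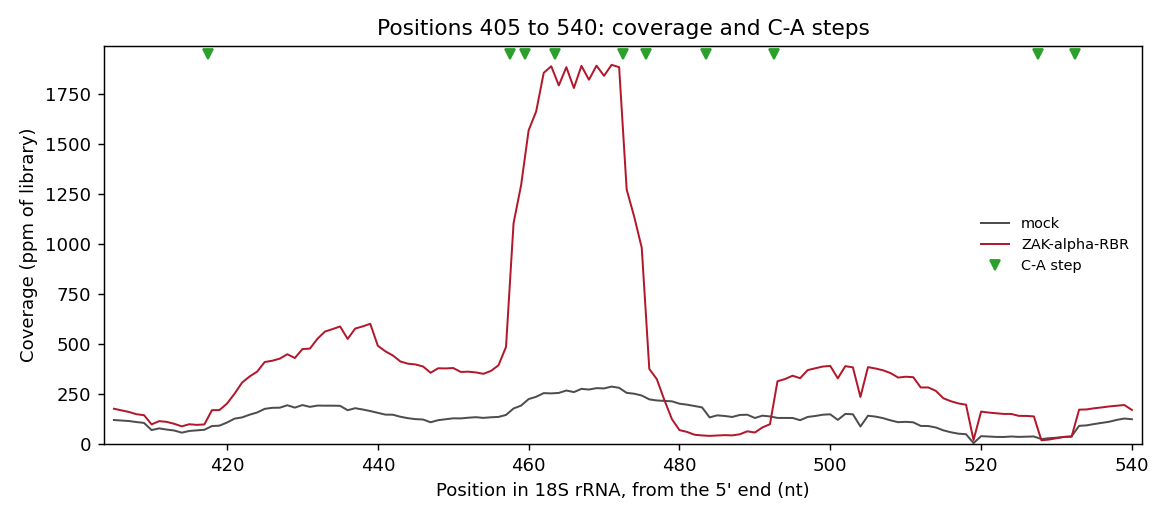
Coverage in ppm (y) at positions 405 to 540 (x), red for ZAK-alpha-RBR and grey for the mock; green triangles mark the C-A steps. The red line forms a plateau between the triangles into 458 and 473, drops below the grey line at 479 to 492 and rises again at the triangle into 493.

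Directly 3' of the core the excess gave way to a deficit. From 480 to 490 all 11 positions were at least 2-fold lower with ZAK-alpha-RBR, and at position 484 there were 286 reads against 10568, 3.21-fold lower (2.85 to 3.62). The lowest ratio of this run was at position 483, 4.19-fold lower (3.73 to 4.71). It was not called as a region.

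The second excess covered the hairpin of helix 15 and the A-rich strand after it. ZAK-alpha-RBR depth went from 684 to 2153 reads between positions 492 and 493, while the mock had 10949 and 10366. Over the block 493 to 527 the means were 274 ppm and 93.5 ppm, 2.93-fold apart. At position 500, in the loop, 2678 reads stood against 11793, a 2.62-fold difference (2.51 to 2.73), and at position 520 there were 1116 against 3185, 4.04-fold (3.77 to 4.32). RNAfold, run on this block alone with the base on each side, predicted a stem of 5 base pairs that joins 494 to 498 with 505 to 509. Run on the called region 496 to 530, it predicted 4 other pairs, 496 to 499 with 503 to 506. The predicted stem thus depends on the segment folded, and position 500 is in the loop of both. From position 500 to position 520 the mock lost more of its depth than ZAK-alpha-RBR did. At the end of the block ZAK-alpha-RBR depth fell from 952 to 134 reads between 527 and 528, and the mock fell from 3059 to 2030.

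Over the hairpins between helix 15 and the 530 loop, roughly helices 16 and 17, the libraries were similar in mean level but not position by position. In the tiles from 526 to 600 the log2 ratios were 0.52, -0.43 and 0.05. Mean levels were 129 ppm (ZAK-alpha-RBR) and 125 ppm (mock) in the block 533 to 568, and 199 and 163 ppm in the block 569 to 593. Within the block 533 to 568 the ZAK-alpha-RBR library went from 1.88-fold higher at position 533 to 1.95-fold lower at position 564. The 10 positions from 594 to 603 were lower, with 131 and 227 ppm.

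The 530 loop itself was near the level of the mock, and the strand after it was not. Mean levels over 612 to 634 were 333 ppm for ZAK-alpha-RBR and 292 ppm for the mock. The log2 ratio was 0.19, which turned to -0.12 when the segment was widened by 10 positions on each side. The stretch from 604 to 633 was flat in ratio: its 3 blocks between C-A steps, 604 to 615, 616 to 618 and 619 to 633, had log2 ratios of 0.23, 0.23 and 0.24. At position 622, inside the GCCGCGG match, 2150 reads stood against 20429, a 1.21-fold difference (1.16 to 1.27).

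From position 634 to the end of the domain the ZAK-alpha-RBR library dropped away in 2 steps. Depth fell from 2338 to 1075 reads between 633 and 634 and from 927 to 445 between 639 and 640, while the mock went from 25232 to 27290 and from 26514 to 23575. In the lower region 638 to 662 the means were 74.6 and 268 ppm, 3.59-fold apart, and at position 647 there were 478 reads against 25386, 4.61-fold lower (4.21 to 5.06). At 664 ZAK-alpha-RBR depth rose again, from 402 to 766 reads, while the mock fell from 12460 to 9504, which ended the run.

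Many of these changes lay at C-A steps. This pair was picked because changes were seen there, and the other pairs were counted only together, so whether another pair does likewise was not tested. The domain has 38 C-A steps, 5.70% of its 667 neighbouring pairs. In the ZAK-alpha-RBR library depth differed at least 1.5-fold across 20 of the 38 (9 rises and 11 falls), against 3.82% of the other pairs; over all pairs of both rRNAs the share was 6.75%. In the mock 3 of the 38 did, against 2.86% of the other pairs and 4.53% of all pairs of both rRNAs. The change was the larger one in the ZAK-alpha-RBR library at 31 of the 38 places. That count was not made for the other pairs, so it has no background to be read against. In the ZAK-alpha-RBR library the same limit was passed at 52.6% of the C-A steps of the domain, 44.9% of those of the rest of 18S and 54.4% of those of 28S, so the domain did not stand apart in this count.

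As a share of all changes in depth, C-A steps of the domain weighed more in the ZAK-alpha-RBR library than in the mock. They held 32.1% of the ZAK-alpha-RBR rises and 37.3% of the falls, against 13.0% and 19.7% in the mock. In the rest of 18S the ZAK-alpha-RBR shares were 11.9% and 19.2%, and in 28S they were 18.3% and 17.7%. C-A pairs made up 5.70% of the neighbouring pairs in the domain, 4.08% in the rest of 18S and 3.33% in 28S. Within the domain but outside the region 419 to 479, the ZAK-alpha-RBR shares were 21.6% and 29.6% on its 5' side and 38.0% and 26.5% on its 3' side. Once dips in runs of 1 base had been filled, the 5 largest rises of the ZAK-alpha-RBR library, into positions 458, 79, 460, 493 and 604, were all C-A steps. Of its 5 largest falls, into 473, 476, 99, 634 and 475, all but the last were.

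The mock's largest rises, with dips filled, were into 54, 533, 79, 604 and 193 and its largest falls into 99, 102, 192, 107 and 229. All of these rises but the one into 193, and the falls into 99, 107 and 229, were C-A steps as well. The largest of these, the fall into 99, held 5.32% of its falls, whereas the fall into 473 held 11.0% of those of ZAK-alpha-RBR.

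Many limits of the runs past 2-fold lay at the same steps. The domain has 8 such runs of at least 10 positions, and 11 of their 16 edges (68.8%) lay exactly at a C-A step, both edges in 493 to 527, 50 to 78, 224 to 243 and 634 to 663. In the rest of 18S 6 of 18 edges did (33.3%) and in 28S 32 of 94 (34.0%), where C-A pairs are also less dense. Between successive steps the domain splits into 39 blocks of 2 to 74 positions, of which 6 were at least 2-fold higher in mean level and 11 at least 2-fold lower. Over both rRNAs 2.70% of such blocks were 2-fold higher and 27.0% 2-fold lower, so the domain's share of lower blocks, 28.2%, was near that background. Its share of higher blocks was 15.4%, against 0% in the rest of 18S and 0.588% in 28S. All of its higher blocks but 493 to 527 adjoin each other from 418 to 475, so they are parts of 1 excess. How far the way the RNA was fragmented and ligated sets these edges was not tested.

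Some narrow dips occur at the first base of long runs of one base, in both libraries. At position 519, the first of 5 A, depth was 144 reads with ZAK-alpha-RBR and 449 in the mock, against 1353 and 3947 at position 518. At position 668, the last of the domain and the first of another run of 5 A, it was 4 and 293. Dips of at least 2-fold in such runs were also found at 202, 265 and 321 in both libraries. At 192 both libraries also dipped, to 127 reads with ZAK-alpha-RBR and 2244 in the mock, and the mock dip was under 2-fold against the lower flank of its run. The ratios at these single positions rest on fewer reads than those of their neighbours, and the averages over 15 positions include them.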

How the data were processed

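CLIP-seq coverage of 18S and 28S rRNA was taken from the deposited table, which holds 1 ZAK-alpha-RBR and 1 mock library. Both columns are a coverage signal that the authors deposited as normalized reads: per the file headers 1 value per position, and from the values the ZAK-alpha-RBR column was scaled to the mock total of 78749474. Its values are whole multiples of 11.5 (tolerance 0.001), so unscaled depths were recovered, with a sum of 6835941. The submitters' processing notes name cutadapt 2.0 and Bowtie2 2.3.4.1; for the reference, strand and duplicates no setting is given in the sources used here.

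Ratios carry a pseudocount of 1 ppm; folds of single positions and of means do not. Read intervals are exact Poisson-based (conditional binomial) at 95% and cover counting error only; reads without molecular identifiers may be copies of 1 molecule. Named were all called regions, the 5 highest positions and largest steps of each library, the 3 highest and lowest tiles, the 530 loop and the first 25 positions; other positions are named as edges or as examples chosen after their values were seen. Dips were filled by raising a run of equal bases to the lower of its flanks. The region rule was run on simulated data with counts drawn independently at each position. Neighbouring positions of the real libraries share reads, so that run does not give the rule's error rate here. The part, rules and segments were chosen with earlier results of these data known. Python 3.11.15, numpy 2.4.6, scipy 1.17.1 and RNAfold 2.7.2 were used.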

Additional observations from a re-analysis of the deposited data

How the results depend on the processing

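No replicate could be dropped, and no setting below has a test. No paired analysis was possible because each group has a single library. The difference in the domain's share of coverage was 1.19-fold within 18S alone, 1.18-fold without the 10 highest positions of either library and 1.01-fold without the region 419 to 479. The median log2 ratio of 0.24 was 0.11 with scaling within 18S, which moved the median of 18S from -0.02 to -0.14, and 0.13 with scaling by the median of ratios. A window of 5 positions gave 5 lower regions, a 1.5-fold limit gave 5 higher and 6 lower, and tiles that start 12 positions later gave 5 higher tiles. Filling dips raised the C-A share of ZAK-alpha-RBR rises to 37.8% and falls to 44.4%, and of mock rises to 16.8% and falls to 24.2%. The log2 ratio of the 530 loop turned to -0.12 when widened. The window of 31 positions brought the lower region 48 to 74 to -1.06 at position 69, and it no longer called 224 to 239, nor did the 3-fold limit. A baseline of library totals, or of the median of single positions, added 104 to 113. Totals without the region 419 to 479, the baseline from single positions and both tile alternatives were chosen after seeing the data. Counts of positions past 2-fold stayed between 88 and 96 higher and between 114 and 142 lower. ZAK-alpha-RBR depths, about 11.5-fold shallower, limit precision, and spread between separately made libraries was not measured.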
